A study of Mus musculus with 36 samples.

Results

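Nearly full reads are bisulfite reads of the *Wnt1DR* DMD in which all but 1, 2 or 3 of 20 CpGs were methylated. Bisulfite treatment turns unmethylated cytosine into a base that is read as T and leaves 5mC as C, so each read gives the state of every CpG on one strand of one PCR product. A read belonged to the set when the alignment software had kept it, when it matched the reference at 98 % identity or more, when all 20 CpGs were called, and when 17 to 19 of them were methylated. An unmethylated CpG in such a read is called a skip. The set held 48668 reads, out of 179142 reads with 20 calls, in the 22 libraries that had at least 200 such reads. All 36 libraries of the series held 48768 nearly full reads among 280217. The members were thus chosen by their measured number of methylated CpGs. The rule fixed how many CpGs of a read were skipped but not which, so the positions of the skips were compared between groups, while the numbers of skips are given as a description only.

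All DNA came from mice that carry *Wnt1DR*, an allele in which the imprinting control region (ICR) of *Rasgrf1* was placed at *Wnt1*, and the PCR was specific for that copy. The libraries with 200 or more nearly full reads were the adult tails of 12 +/DR animals, which inherited the allele from the father, 4 tissues of +/DR embryos at e9.5, and 6 sperm libraries. The tails came from 6 animals of a lineage with paternal transmission in every generation and 6 of a lineage that alternated between the parents, going by the sample titles. In the paternal lineage, tails 31092, 31150, 31153 and 30999 were of generation F1, 32415 of F5 and 32802 of F6. In the alternating lineage, 31078 was of F2, 31508 and 31819 of F4, and 32339, 32529 and 32530 of F6. Comparisons by lineage therefore also carry differences in generation. For tail 32415 the sources disagree, since its title gives the paternal lineage and the supplement of the study the alternating one, which would make 5 and 7. The e9.5 tissues were extraembryonic tissue, head, spine and visceral organs, with 1 library each. The labels do not tie them to separate embryos, so tests over the 4 tissues count tissues. Sperm was sampled whole from 2 DR/DR animals (35084 and 35090), and from 2 +/DR animals (35669 and 35670) as a pellet and a swim-up supernatant, the motile fraction. The pellet and the supernatant of an animal were averaged, which gave 4 sperm animals. The remaining 14 libraries were those of DR/+ tails and e9.5 tissues, with maternal transmission, and of 2 oocyte pools, 1 of DR/DR and 1 of DR/+ genotype. They held 100 nearly full reads in all, from 0 to 51 in a library, and both oocyte pools held none among 17880 reads. The tails 31092 and 32802 were in sequencing run 1 and the other 20 of the 22 libraries in run 2. The reads carry no molecular identifiers, so copies of one molecule cannot be told from separate molecules, and 95 % Wilson intervals given for single libraries cover counting error only.

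An ICR carries 5mC on the copy from one parent, and at *Rasgrf1* this is the copy from the father. The mark is laid down in the male germline. In somatic cells it is copied after each DNA replication by the maintenance methyltransferase DNMT1, which acts on CpGs that are methylated on the parental strand only. A CpG that is missed when the mark is laid down or copied can be filled in later by de novo methyltransferases or stay unmethylated in the descendants of that strand.

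The 20 CpGs fall into a dense stretch and a sparse stretch. CpGs 1 to 11 lie within 55 bases of the native sequence on chromosome 9 (NCBIM37, plus strand, from 89774498), with a median distance of 2 bases to the nearest other CpG. CpGs 12 to 20 span 94 bases, from 89774573, with a median distance of 6 bases. The whole reference sequence lies at 89774437 to 89774686, upstream of *Rasgrf1* (89804613 to 89921814, same strand), and overlaps no annotated gene. The surroundings of the CpGs that were skipped most or least are given here from NCBIM37, 10 bases to each side on the plus strand, with the CpG itself in capitals.
CpG 12, skipped most in tails (chr9:89774563-89774584): cacatccatcCGtggctaccgc
CpG 20, among the 2 most skipped in tails, e9.5 tissues and sperm (chr9:89774655-89774676): acaactaccaCGactgctactg
CpG 19, next in tails and sperm (chr9:89774641-89774662): gctaccgctgCGctacaactac
CpG 17, the next in sperm after CpGs 20 and 19 (chr9:89774630-89774651): ttcactgttgCGctaccgctgc
CpG 14, the next in e9.5 tissues after CpGs 20 and 3 (chr9:89774592-89774613): gttgctgcacCGctgccgctaa
CpG 3, next to CpG 20 in e9.5 tissues (chr9:89774504-89774525): gctgctgccgCGcttcgcggct
CpG 8, skipped least in tails (chr9:89774533-89774554): gctaccgtttCGcggccgcgct
CpG 2, next least in tails (chr9:89774502-89774523): gtgctgctgcCGcgcttcgcgg
CpG 4, the next least in tails (chr9:89774509-89774530): tgccgcgcttCGcggctgcact
CpG 12 and CpG 20 have 1 and 2 other CpGs within 20 bases, against 5 each for CpGs 2, 4 and 8. CpG 20 is the only one of the 20 that is both preceded and followed by A.

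Nearly full reads were a larger part of the tail libraries than of the sperm libraries. They made up 39.4 to 60.8 % of the reads with 20 calls in the 12 tails (median 54.6 %). In the e9.5 tissues they made up 21.7 % (95 % Wilson interval 20.8 to 22.5) in extraembryonic tissue, 32.9 % (31.8 to 33.9) in head, 43.7 % (42.7 to 44.8) in spine and 14.5 % (13.7 to 15.3) in visceral organs. In the 6 sperm libraries they made up 6.05 to 16.1 %. Reads with all 20 CpGs methylated made up 12.5 to 51.9 % in tails, 4.50 to 62.6 % in e9.5 tissues and 1.08 to 8.47 % in sperm. Just outside the limit, reads with 16 methylated CpGs were 0.477 to 9.01 % of the reads in tails, 0.454 to 11.03 % in e9.5 tissues and 1.04 to 5.90 % in sperm. Of the 28975 nearly full reads of tails, 17175 had 1 skip, 8362 had 2 and 3438 had 3. The 9315 reads of e9.5 tissues divided into 6160, 1753 and 1402, and the 10378 reads of sperm into 4444, 3325 and 2609.

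Several libraries stood apart by the number of patterns they held, where a pattern is the set of CpGs that a read skipped. The 12 tails held 136 to 303 patterns each, and the commonest took 6.81 to 13.8 % of the nearly full reads. In e9.5 extraembryonic tissue 1060 of 1869 reads, 56.7 % (95 % Wilson interval 54.5 to 58.9), skipped CpG 3 alone. In e9.5 visceral organs 606 of 1085 reads, 55.9 % (52.9 to 58.8), skipped CpGs 14, 19 and 20. The sperm supernatants held 97 patterns (animal 35669) and 77 patterns (35670), and their commonest 5 patterns took 50.2 and 69.4 % of the reads. The pellets of the same animals held 305 and 306 patterns, with 25.2 and 29.5 % in the commonest 5. Whether such a pattern stands for many cells or for many copies of few molecules was not tested. Several comparisons whose value or call rests on these libraries are given below also without them. The leading patterns are written out here as calls from CpG 1 to CpG 20, M for methylated and U for a skip.
E9.5 extraembryonic tissue, CpG 3: MMUMMMMMMMMMMMMMMMMM
E9.5 visceral organs, CpGs 14, 19 and 20: MMMMMMMMMMMMMUMMMMUU
Commonest in tails, CpG 12: MMMMMMMMMMMUMMMMMMMM
Commonest in sperm, CpG 19: MMMMMMMMMMMMMMMMMMUM
Commonest pair in tails, CpGs 12 and 20: MMMMMMMMMMMUMMMMMMMU
Found in 6 libraries, among them e9.5 head, CpGs 9, 12 and 14: MMMMMMMMUMMUMUMMMMMM

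**Figure D1:**
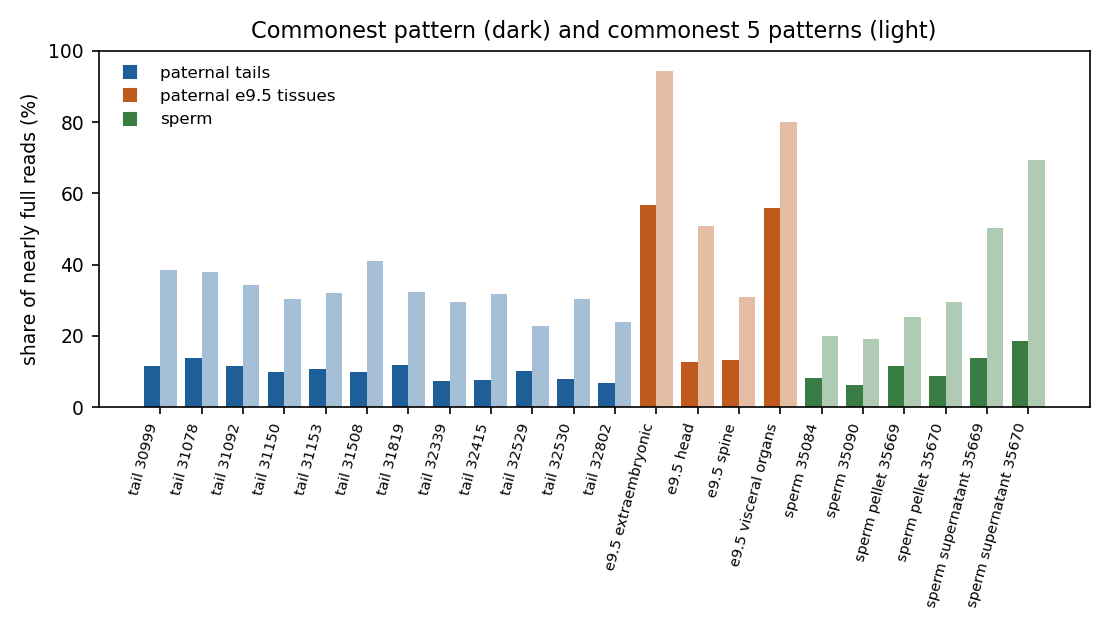
Share of the nearly full reads of each library (%, vertical axis) taken by its commonest pattern (dark bars) and by its commonest 5 patterns (light bars), for 12 paternal tails, 4 paternal e9.5 tissues and 6 sperm libraries. The e9.5 extraembryonic tissue and visceral organs stand apart with 56.7 and 55.9 % in 1 pattern, while no tail exceeds 13.8 %.

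In the tails, skips were most frequent at CpG 12, followed by CpG 20 and CpG 19. The share of skips is the percentage of all skips of a library that fall at a CpG, and 20 CpGs skipped alike would have 5 % each. CpG 12 took 5.10 to 16.9 % of the skips (median 11.7 %), with a mean of 11.6 ± 3.52 % (SD, n = 12). CpG 20 took 5.04 to 16.2 % (median 8.84 %), with a mean of 9.71 ± 3.48 %. Both were above 5 % in all 12 tails. CpG 19 took 3.25 to 14.3 % (median 6.13 %), with a mean of 7.13 ± 3.86 %, and was above 5 % in 7 of 12 tails. CpG 12 was skipped by 7.71 to 22.9 % of the nearly full reads of a tail.

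The CpGs skipped least in tails all lay in the dense stretch. CpG 8 took 0.919 to 3.99 % of the skips (median 1.90 %), with a mean of 2.06 ± 1.04 % (SD, n = 12). CpG 2 took 1.11 to 4.79 % (median 2.14 %), with a mean of 2.54 ± 1.29 %. Neither exceeded 5 % in any tail. CpG 4 had a mean of 2.68 ± 2.08 % and a median of 2.16 %, and exceeded 5 % only in tail 32802, with 8.44 %. The highest value of CpG 8 was below the lowest value of CpG 12.

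Single tails differed in the rest of their profile. CpG 12 was the most skipped CpG in 5 of 12 tails and among the first 3 in 10. CpG 20 led in 2 tails, and CpGs 11, 13, 14, 17 and 19 led in 1 tail each. Tail 32529 had 18.8 % of its skips at CpG 13, tail 31153 had 17.5 % at CpG 14, and tail 32530 had 15.4 % at CpG 11. These CpGs were chosen after their values had been seen, as the leading CpG of a single animal. Tail 32802, of sequencing run 1, had its skips spread over CpGs 1 and 3 to 6, each with 7.85 to 8.72 %, and had 5.10 % at CpG 12. Between pairs of tails, Pearson's r of the 20 shares ran from -0.22 to 0.77 with a median of 0.39 over 66 pairs. The 20 points of each pair share the same CpGs and shares that add up to 100 %, so r is given as a description.

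**Figure D2:**
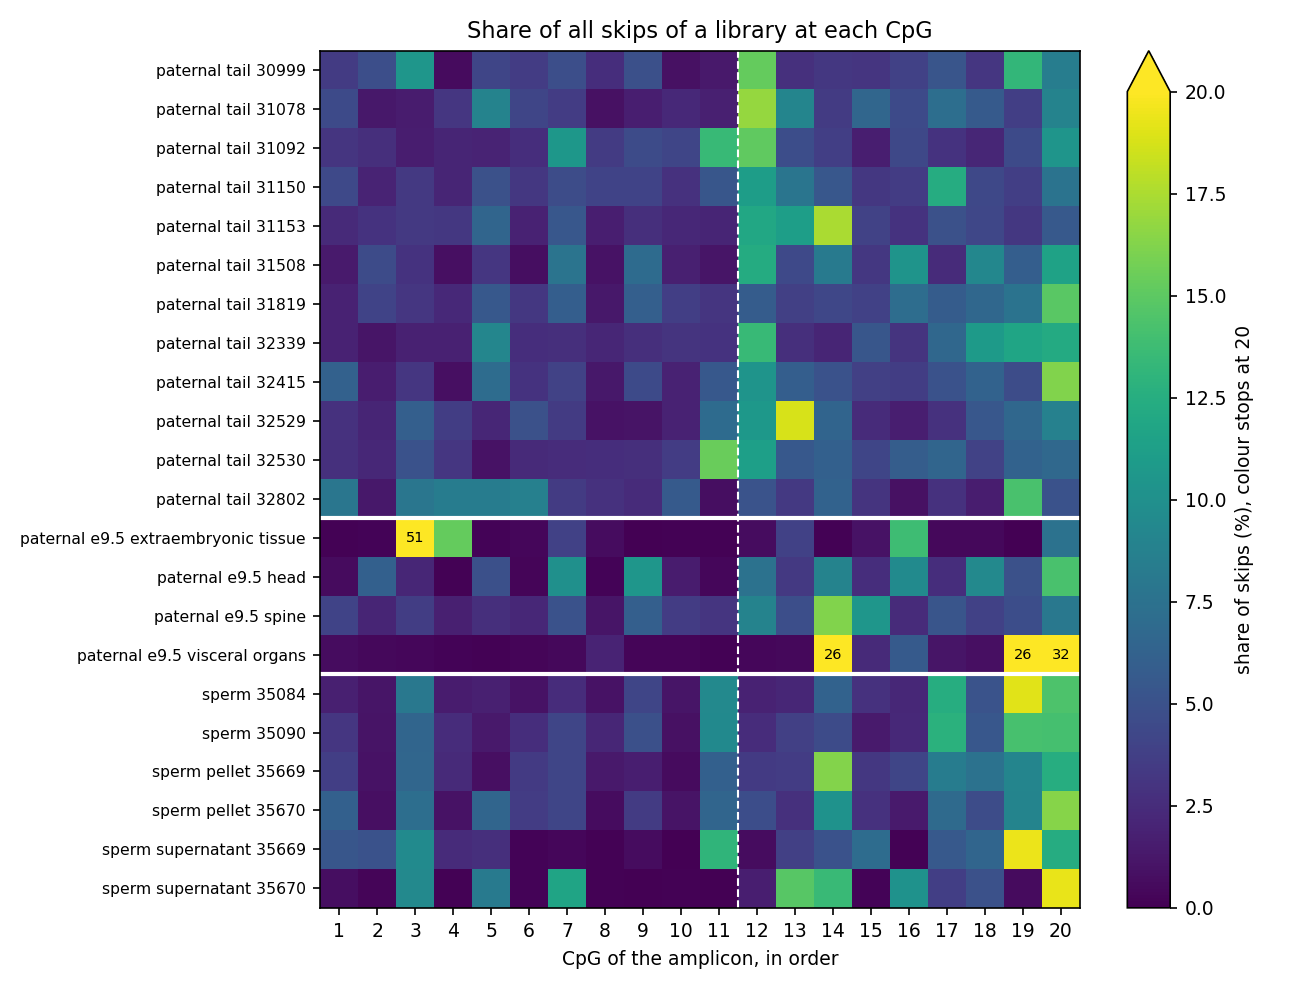
Share of all skips of a library (%, colour) at each CpG of the amplicon (horizontal axis, CpGs 1 to 20 in order) for 12 paternal tails, 4 paternal e9.5 tissues and 6 sperm libraries. White lines separate the groups, the dashed line separates CpGs 1 to 11 from 12 to 20, and shares above the end of the colour scale at 20 % are printed. CpG 12 is bright in most tails and dark in sperm, where CpG 20 is bright in all 6 libraries. CpGs 17 and 19 are above 5 % in 5 of the 6 and at 3.75 and 0.589 % in the supernatant of animal 35670.

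In sperm, skips were most frequent at CpGs 20, 19 and 17, near the far end of the reference sequence. Base 229 of its 250 bases holds CpG 20, and whether the place in the read has a part in the skips was not tested. CpG 20 took 14.4 % of the skips in animal 35084, 14.1 % in 35090, 12.4 % in 35669 and 17.9 % in 35670, a mean of 14.7 ± 2.28 % (SD, n = 4 animals). All 4 animals were above the mean of the tails. CpG 19 took 19.1, 14.2, 14.3 and 4.79 % in the same order, a mean of 13.1 ± 5.98 %. CpG 17 took 12.4, 12.8, 6.98 and 5.35 %, a mean of 9.39 ± 3.78 %. Animal 35670 was the lowest of the 4 at both CpGs, and its supernatant had 0.589 % at CpG 19 and 3.75 % at CpG 17.

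CpG 12 was skipped less in sperm than in tails. It took 1.88 % of the skips in animal 35084, 2.52 % in 35090, 2.04 % in 35669 and 3.20 % in 35670, a mean of 2.41 ± 0.592 % (SD, n = 4). Each of these lay below each of the 12 tails. The difference from the tails was -9.22 percentage points (two-sided exact permutation test over 12 tails and 4 animals, p = 0.000549, the smallest value this design allows, and adjusted p = 0.0110 after Benjamini-Hochberg adjustment over the 20 CpGs). CpG 12 was the only CpG past the adjusted threshold, 1 of 20 or 5 % of those tested, and the only one without overlap between the groups. Within sequencing run 2 the difference at CpG 12 was -9.52 percentage points (exact permutation test, adjusted p = 0.0200). Without the supernatants it was -8.49 (exact permutation test, adjusted p = 0.0110), and with each distinct pattern of a library counted once it was -4.41 (exact permutation test, adjusted p = 0.0110). The call was lost among reads with a single skip (-7.52, exact permutation test, adjusted p = 0.143), with medians in place of means (-9.37, adjusted p = 0.0659), and against the tails of the paternal lineage alone (-9.09, adjusted p = 0.190) or of the alternating lineage alone (-9.34, adjusted p = 0.0635). With tail 32415 moved to the alternating lineage, the adjusted exact permutation p was 0.119 against the 5 paternal and 0.0303 against the 7 alternating tails. The splits by lineage hold fewer tails, which raises the smallest p that the test can reach. A lost call there cannot tell a smaller difference from a smaller group.

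**Figure D3:**
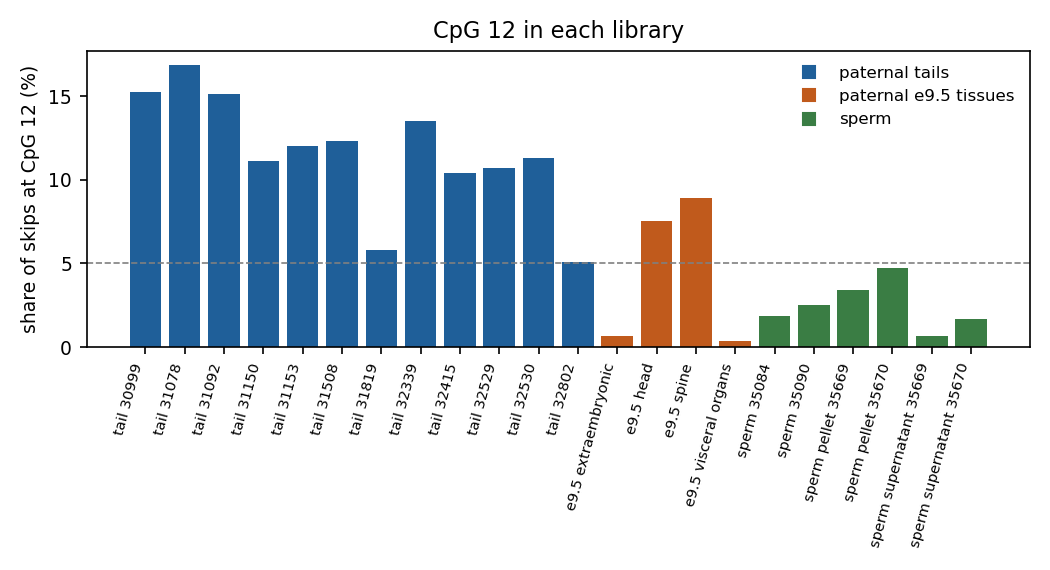
Share of skips at CpG 12 (%, vertical axis) in each of the 22 libraries, coloured by group, with a dashed line at the 5 % of an even distribution. The 12 tails lie between 5.10 and 16.9 %, the 6 sperm libraries between 0.679 and 4.74 %, and the e9.5 head and spine, with 7.52 and 8.93 %, lie within the range of the tails.

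At an unadjusted exact permutation p under 0.05, 6 of 20 CpGs, or 30 % of those tested, differed between sperm and tails. Besides CpG 12 these were CpGs 3, 17, 19 and 20, higher in sperm by 3.56, 3.97, 5.95 and 4.99 percentage points (exact permutation test, p = 0.0258, 0.0324, 0.0297 and 0.0209), and CpG 10, where sperm differed by -2.10 points (p = 0.00769 by exact permutation). CpG 10 was named after its values had been seen. All 5 had an adjusted p of 0.0769 or above. CpG 3, inside the dense stretch, took 6.51 to 8.33 % of the skips in the 4 sperm animals and 1.51 to 10.5 % in the tails, of which 4 exceeded 5 %. The mean profiles of sperm and tails had a Pearson's r of 0.55 and a Spearman's rho of 0.75 over the 20 CpGs, and both groups had CpGs 19 and 20 among their first 3 and CpGs 2, 4 and 8 among their lower values.

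In the e9.5 tissues the mean profile was set by 2 libraries. CpG 20 had the highest mean, with 7.53 % in extraembryonic tissue, 14.2 % in head, 7.99 % in spine and 31.8 % in visceral organs, a mean of 15.4 ± 11.4 % (SD, n = 4). All 4 tissues exceeded 5 %. CpG 3 came next, with 51.2 % in extraembryonic tissue but 2.15 % in head, 3.64 % in spine and 0.359 % in visceral organs, and a mean of 14.3 ± 24.6 %. Only 1 of the 4 tissues exceeded 5 %. CpG 14 had 0.138, 8.95, 16.2 and 26.2 % in the same order, a mean of 12.9 ± 11.1 %.

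At CpG 12, the e9.5 tissues were divided. Its share was 7.52 % in head and 8.93 % in spine, within the range of the tails, and 0.643 % in extraembryonic tissue and 0.359 % in visceral organs, below every tail. The mean of 4.36 ± 4.50 % (SD, n = 4) differed from that of the tails by -7.27 percentage points (exact permutation test, p = 0.00604, adjusted p = 0.121). With head and spine alone it was -3.41 percentage points (p = 0.220 by exact permutation, adjusted p = 0.488). None of the 20 CpGs passed the adjusted threshold between e9.5 tissues and tails (0 %), and 2 of 20 (10 %) had an unadjusted exact permutation p under 0.05, CpG 12 and CpG 6. CpG 6, named after its values had been seen, differed by -2.63 percentage points (exact permutation test, p = 0.0231, adjusted p = 0.176). With each distinct pattern counted once, CpG 20 was 8.33 percentage points higher in e9.5 tissues than in tails (exact permutation test, adjusted p = 0.0330), but with head and spine alone it was 3.73 higher and past no threshold (exact permutation test, adjusted p = 0.330). With head and spine alone, a single CpG at the smallest p that the test allows would not pass the adjusted threshold.

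**Figure D4:**
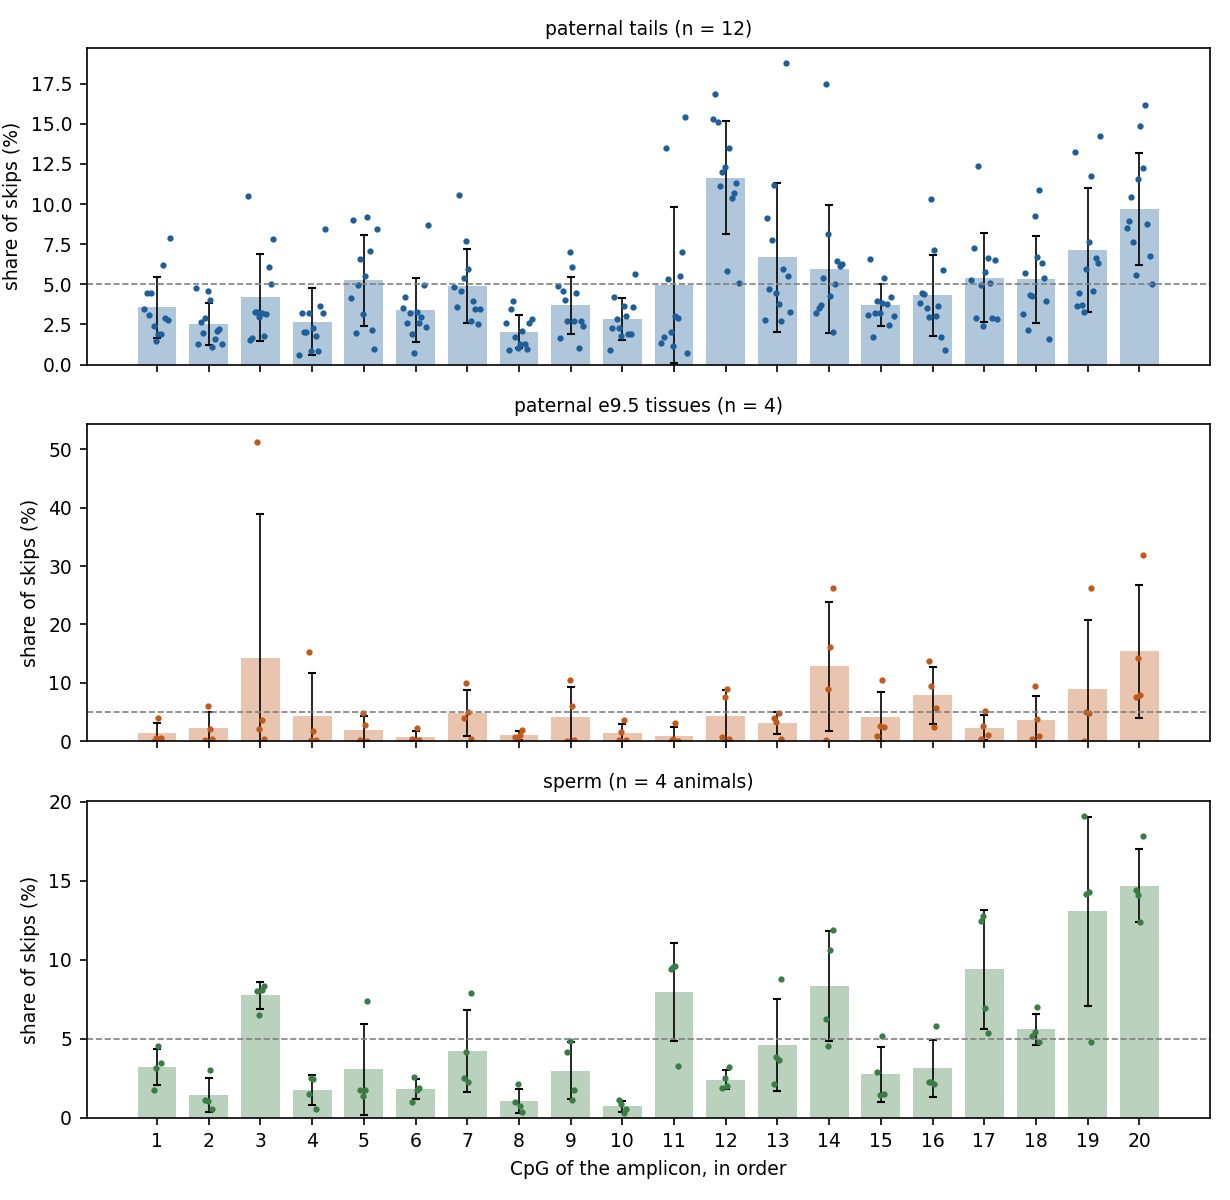
Share of skips (%, vertical axes, each panel with its own scale) at CpGs 1 to 20 (horizontal axis) in paternal tails, paternal e9.5 tissues and sperm. Bars are means, error bars 1 SD, points single tails, tissues or sperm animals, and the dashed line is the even share of 5 %. CpG 12 has the highest mean in tails with 11.6 % and one of the lower means in sperm with 2.41 %, while CpG 20 is high in all 3 groups.

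Between the e9.5 tissues and sperm no CpG passed the adjusted threshold (0 %), and 2 of 20 (10 %), CpGs 11 and 17, had an unadjusted p of 0.0286, the smallest that 4 against 4 allow in an exact permutation test. A CpG at that p could pass the adjusted threshold only if many others reached it too, so the 0 % allows no conclusion. At both CpGs the tissues and the sperm animals did not overlap, as was the case at 10 % of the CpGs tested. By single library they did, since the supernatant of animal 35670 had 0.0536 % at CpG 11 and 3.75 % at CpG 17. With head and spine alone, the e9.5 tissues differed from sperm by -6.24 and -5.46 percentage points (exact permutation test, p = 0.0667 and 0.133, adjusted p = 0.267 and 0.333). CpG 11 took 0.0797 to 3.10 % in e9.5 tissues and 3.28 to 9.63 % in sperm animals, and was named after its values had been seen. CpG 17 took 0.413 to 5.24 % in e9.5 tissues and 5.35 to 12.8 % in sperm animals.

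The sparse stretch was skipped more often than its number of CpGs would give. CpGs 12 to 20 hold 45 % of the CpGs. They took 42.3 to 68.1 % of the skips in tails (median 60.4 %, mean 59.9 ± 7.65 %, SD, n = 12), with only tail 32802 below 45 %. The 4 sperm animals had 66.6, 61.2, 64.3 and 64.0 %, a mean of 64.0 ± 2.22 %. The e9.5 tissues had 27.9 % in extraembryonic tissue, 63.2 % in head, 64.7 % in spine and 95.1 % in visceral organs, a mean of 62.7 ± 27.5 %. Head and spine lay within the range of the tails, and the 2 libraries with a dominant pattern lay outside it on opposite sides.

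As shares of skips, none of these differences between groups exceeded the spread between samples. Sperm was 4.14 percentage points above tails (exact permutation test, p = 0.317), 1.36 within sequencing run 2 (exact permutation test, p = 0.550) and 3.83 without the supernatants (exact permutation test, p = 0.365). Counted instead as the percentage of nearly full reads with at least 1 skip at CpGs 12 to 20, sperm was 13.3 percentage points above tails (p = 0.00385 by exact permutation), a scale that also carries the number of skips per read, which the rule used. The e9.5 tissues were 2.88 percentage points above tails (exact permutation test, p = 0.71) and 0.102 within run 2 (p = 0.981). They differed from sperm by -1.26 percentage points (exact permutation test, p = 0.8). With head and spine as the only e9.5 tissues, the difference from tails came to 4.11 percentage points (exact permutation test, p = 0.462). In the supernatants CpGs 12 to 20 took 60.5 and 69.04 % of the skips and in the pellets 68.1 and 58.9 %, in animals 35669 and 35670. The paired difference of 1.23 percentage points had opposite signs in the 2 animals (exact sign-flip permutation test, p = 1, with 0.5 the smallest that 2 pairs allow).

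Bases next to the CpG went with the share of skips only loosely. In tails the 3 CpGs preceded by T had a mean share of 2.72 %, the 7 preceded by G 4.89 % and the 9 preceded by C 5.32 %, and the single CpG preceded by A was CpG 20. In sperm the same means were 1.54, 6.78 and 3.69 %. Over the 20 CpGs, the mean share rose with the distance to the nearest other CpG with a Pearson's r of 0.46 in tails, 0.25 in sperm and 0.29 in e9.5 tissues. These correlations run across CpGs of the same reads, which are not independent replicates.

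The skips of nearly full reads fell at much the same CpGs as the unmethylated calls of partly methylated reads, those with 4 to 16 methylated CpGs, in 2 of the 3 groups. Over the 20 CpGs both profiles had a Pearson's r of 0.95 in sperm and 0.80 in tails, but -0.08 in e9.5 tissues. The e9.5 mean profile was set by extraembryonic tissue and visceral organs, and this r was not computed for head and spine alone. The profiles compared come from the same libraries but from separate reads. At CpG 12 the partly methylated reads of tails had 6.81 % of their unmethylated calls and those of sperm 4.89 %. At CpG 20 they had 7.66 and 8.22 %.

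In tails, skips lay on neighbouring CpGs more often than independent skips would. Among reads with exactly 2 skips, the share in which they were neighbours was 7.56 to 30.6 % (median 15.9 %, mean 16.05 ± 6.18 %, SD, n = 12). If skips were independent, with each CpG weighted by its count among the reads of the same library with 1 skip, 7.45 to 14.9 % would be neighbours (mean 10.5 ± 2.16 %). The difference was 5.58 ± 5.81 percentage points, above 0 in 11 of 12 tails (two-sided exact sign-flip permutation test, p = 0.00293). It was largest in tail 31153, with 30.6 % (133 of 434 reads, 95 % Wilson interval 26.5 to 35.1) against 11.6 %, and below 0 only in tail 31078, with 7.56 % (5.21 to 10.8) against 10.8 %. Leaving out each tail in turn gave 4.36 to 6.38 percentage points (exact sign-flip permutation p 0.000977 to 0.00586). Within run 2 the difference was 4.78 (exact sign-flip permutation test, p = 0.0117). In the 6 tails of the paternal lineage it was 7.62 (exact sign-flip permutation test, p = 0.0312) and in the 6 of the alternating lineage 3.54 (exact sign-flip permutation test, p = 0.0938), where 0.0312 is the smallest p for 6. With tail 32415 moved to the alternating lineage these became 8.85 and 3.24 (exact sign-flip permutation test, both p = 0.0625, the smallest that 5 tails allow).

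The largest excess in tails was that of immediate neighbours, and it did not extend to CpGs 2 to 4 apart. At a distance of 2 CpGs the observed share was 9.27 % against 9.88 % for independent skips, above it in 6 of 12 tails, and at a distance of 3 it was 8.76 % against 8.36 %, again above it in 6 of 12. At a distance of 4 it was 5.36 % against 8.35 %, above it in 1 of 12. Smaller excesses stood at larger distances, with 9.71 against 7.69 % at 7 CpGs (above in 7 of 12 tails), 7.92 against 6.44 % at 8 (8 of 12) and 5.70 against 3.61 % at 13 (9 of 12). Distances were not tested one by one. Since copies of one molecule cannot be recognised, the part that repeated molecules have in these shares was not tested.

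In sperm and in the e9.5 tissues, the neighbour excess varied between samples. With 4 animals or tissues the test cannot go under 0.05, so it cannot tell whether either mean differs from 0. In sperm it was 3.07 percentage points in animal 35084, -4.94 in 35090, 11.1 in 35669 and 0.455 in 35670, a mean of 2.43 ± 6.69 (SD, n = 4, exact sign-flip permutation test, p = 0.625, with 0.125 the smallest that 4 allow). The value of 35669 came from its supernatant, where 71 of 270 reads with 2 skips, 26.3 % (95 % Wilson interval 21.4 to 31.9), had neighbours, against 6.16 % for independent skips. Without the supernatants the mean was 0.582 (exact sign-flip permutation test, p = 0.75). In the e9.5 tissues it was 6.33 in head and 8.25 in spine, but -39.3 in extraembryonic tissue and 29.4 in visceral organs, a mean of 1.18 ± 28.9 (exact sign-flip permutation test, p = 1). Head and spine alone had a mean of 7.29 (exact sign-flip permutation test, p = 0.5, the smallest that 2 allow). In extraembryonic tissue CpGs 3 and 4, which are neighbours, were the 2 commonest single skips, so independent skips would place 45.2 % of pairs next to each other, while 5 of 84 reads, 5.95 % (2.57 to 13.2), had them there. Sperm differed from tails by -3.15 percentage points (exact permutation test, p = 0.383), and the difference between e9.5 tissues and tails was -4.40 (exact permutation test, p = 0.557), both within the spread between samples. Within run 2 they were -2.35 and -3.60 (exact permutation test, p = 0.536 and 0.647).

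**Figure D5:**
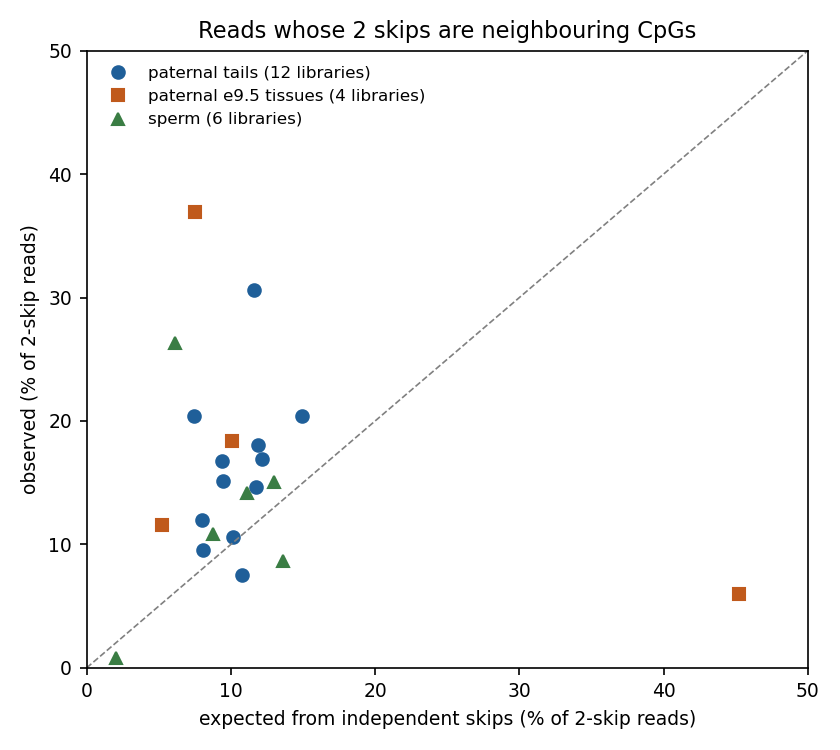
Percentage of reads with exactly 2 skips in which the skips were neighbouring CpGs, observed (vertical axis) against the percentage expected from independent skips (horizontal axis), 1 point for each of 22 libraries. On the dashed line both are equal. All tails but 1 lie above the line, and the e9.5 extraembryonic tissue lies far below it at 5.95 % against 45.2 %.

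The commonest pairs of skips joined the CpGs that were skipped most, and only some were neighbours. In tails the pair of CpGs 12 and 20 made up 3.84 ± 2.54 % of the reads with 2 skips (SD, n = 12), against 2.00 % for independent skips, and was above that in 9 of 12 tails. CpGs 12 and 19 made up 3.34 ± 3.62 % against 1.59 %, above it in 7 tails. The neighbours 12 and 13 made up 3.16 ± 3.63 % against 1.74 %, above it in 6 tails, with a highest value of 11.5 % in tail 31153. All 3 pairs included CpG 12.

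In sperm the pair of CpGs 17 and 19 led, with 6.92 ± 5.43 % (SD, n = 4) against 2.25 %, above independence in all 4 animals. The neighbours 19 and 20 made up 4.95 ± 1.96 % against 4.21 %. CpGs 1 and 20, the first and the last of those compared, made up 4.83 ± 8.03 % against 0.938 %, with 16.8 % in animal 35669 alone. In the e9.5 tissues the leading pairs were above independence in 1 library each. CpGs 19 and 20 made up 30.4 % of the 2-skip reads of visceral organs, CpGs 3 and 20 made up 29.8 % of those of extraembryonic tissue, and CpGs 16 and 20 made up 15.5 % of the latter.

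A small part of the reads with 3 skips had them in a row. Consecutive CpGs are also a small part of the 1140 possible patterns with 3 skips. No share expected from independent skips is given for these reads, so the values below are a description. In tails 0 to 8.93 % of such reads skipped 3 consecutive CpGs, in e9.5 tissues 0.300 to 4.62 % and in the sperm libraries 1.89 to 6.83 %. At least 1 neighbouring pair was present in 22.05 to 61.3 % of the 3-skip reads of tails. It was present in 98.6 % of those of visceral organs, most of which skipped CpGs 19 and 20, and in 4.46 % of those of extraembryonic tissue. The tail with the highest share of 3 in a row was 31153, which also had the highest share of neighbouring pairs.

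In tails, patterns with 1 or 2 skips recurred from library to library, while most patterns with 3 did not. All 20 patterns with 1 skip occurred in all 12 tails. Of 190 possible pairs 187 occurred in at least 1 tail, 5 in all and 3 in 1 tail only. Of 1140 possible patterns with 3 skips 561 occurred in tails, 333 of them in 1 tail only and none in all. In the 6 sperm libraries 159 pairs and 388 triples occurred, of which 45 pairs and 250 triples were in 1 library only. In the 4 e9.5 tissues 126 pairs and 153 triples occurred, of which 74 pairs and 130 triples were in 1 library only.

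A few patterns with 3 skips linked particular libraries. Skips at CpGs 9, 12 and 14 were found in 68 reads of e9.5 head, 86 of tail 31508, 43 of tail 31819 and 24 of e9.5 spine, and in 1 read each of tails 30999 and 32339. Skips at CpGs 5, 9 and 15 were found in 54 reads of e9.5 head, 20 of tail 31508 and 11 of tail 31819, and in no other of the 22 libraries. Of the 3-skip reads of e9.5 head 81.7 % had a pattern that tail 31508 also held, and 60.08 % of those of tail 31508 had a pattern that e9.5 head held. The first of these shares was not particular to head. It was 82.1 % for extraembryonic tissue and 98.5 % for visceral organs. In the other direction, those tissues held a pattern of 5.70 and 8.75 % of the 3-skip reads of tail 31508. The full profiles of both libraries had a Pearson's r of 0.91 over 20 CpGs, against a median of 0.24 over the 48 pairs of a tail and an e9.5 tissue. These tails are of F4 animals and their DNA is not that of the embryos. Whether the libraries share molecules was not tested. Without e9.5 head and both tails, the difference between sperm and tails at CpG 12 was -9.73 percentage points (exact permutation test, adjusted p = 0.0200) and the neighbour excess in tails 5.56 (exact sign-flip permutation test, p = 0.0117). The 2 whole sperm libraries, from animals 35084 and 35090, had an r of 0.96, the highest of all 231 pairs, and 48.3 and 33.5 % of their 3-skip reads had a pattern that the other library held.

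Incomplete conversion was measured at cytosines outside CpGs (CpHs), where 5mC is rare, so an unconverted CpH mostly marks a cytosine that the treatment missed. The nearly full reads of tails had 0.241 to 0.378 unconverted CpHs per read (median 0.297), and the reads with all 20 CpGs methylated had 0.214 to 0.430 (median 0.328). The difference was -0.0196 ± 0.0356 per read (SD, n = 12, exact sign-flip permutation test, p = 0.0835), within the spread between animals. In sperm it was -0.0157 ± 0.0462 per read (n = 4, exact sign-flip permutation test, p = 0.5). In e9.5 visceral organs the nearly full reads had 0.837 unconverted CpHs per read and the fully methylated reads 0.261. Of the 606 reads that skipped CpGs 14, 19 and 20 there, 99.7 % had at least 1 unconverted CpH, against 39.7 % of the other nearly full reads of that library. In no other library did the reads of the commonest pattern exceed 36.4 %. With only reads in which every CpH was converted, the difference of sperm from tails at CpG 12 was -9.46 percentage points (exact permutation test, adjusted p = 0.0110), and the neighbour excess in tails was 5.73 (exact sign-flip permutation test, p = 0.00928).

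One PCR primer spans a further CpG, so that its base in the product is that of the oligonucleotide. It was called unmethylated in 22 of 28895 calls (0.0761 %) in the nearly full reads of tails, in 6 of 9314 (0.0644 %) in e9.5 tissues and in 13 of 10362 (0.125 %) in sperm. This gives the rate at which a read showed a skip where the template had no part in it. The primer was added after the bisulfite treatment, so the rate leaves out methylated CpGs that the treatment made look like skips. It also holds for a single place in the read, and the rate of false skips at the 20 CpGs was not tested. The skips at the 20 CpGs made up 7.63, 7.45 and 9.12 % of the calls of the same reads, a rate that the limit on the number of skips confines.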

How the data were processed

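Per the labels and the methods of the study, DNA was bisulfite converted, amplified with allele-specific primers and sequenced on a MiSeq, and reads were filtered on PHRED score. In run 2 the authors cut each file to its start before alignment. The authors aligned reads to the unconverted reference with QUMA (version not given in the sources used here). The deposited files list each read with its identity and conversion in percent, its counts of mismatches, methylated CpGs and unconverted CpHs, and its string of calls. Per the file headers, reads under 95 % conversion or with more than 10 mismatches or more than 5 unconverted CpHs were excluded, and the identity limit was 90 % in 33 files and 98 % in 3. An identity of 98 % was applied here to all.

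Skips were counted in libraries with at least 200 nearly full reads. Strings of 3509 reads could not be read as calls, 218 of them in the 22 libraries, and were left out. Groups were compared by exact two-sided permutation tests, with Benjamini-Hochberg adjustment over 20 CpGs and a threshold of 0.05, and within-library differences by exact sign-flip tests. Nothing states that samples of a group other than the named animals were independent, so p-values measure the spread between these samples. CpGs named were the 3 skipped most and least in tails, the 3 skipped most in sperm and in e9.5 tissues, the ones past the threshold, and the 3 commonest pairs and the commonest patterns of each group. Members, lists and tests were chosen with earlier results of these data known. Python 3.11.15, NumPy 2.4.6, SciPy 1.17.1, pandas 2.3.3 and Matplotlib 3.10.9 were used, and the scripts were tested on simulated reads. Alternatives covered the read filters, skip numbers, scale, runs, sperm fractions, lineages, neighbour weights and single libraries.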

Additional observations from a re-analysis of the deposited data

Results flagged for a closer look

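Of 48 groups of 4 values that were examined for a sample far from the others, 10 had one, while chance gives about 1 in 20. In the e9.5 tissues, extraembryonic tissue stood apart at CpG 3 with 51.2 % of its skips and at CpG 4 with 15.3 %. Spine stood apart at CpG 1 with 4.03 %, at CpG 6 with 2.25 % and at CpG 11 with 3.10 %. At these CpGs spine lay within the range of the tails. The other tissues, with 0.0797 to 0.638 %, lay below every tail there. In sperm, animal 35670 stood apart at CpG 5 with 7.38 %, at CpG 11 with 3.28 % and at CpG 16 with 5.82 %. Animal 35090 stood apart at CpG 3 with 6.51 %, and animal 35084 had 0.347 unconverted CpHs per nearly full read.

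Nearly full reads were also found in 9 libraries of maternal transmission above the 0.0168 % that a count of 0 among the 17880 oocyte reads allows. This is no test between libraries, since at these depths 1 read can exceed that limit. Their share was 0.0399 % in tail 31071 (3 reads of 7510), 0.261 % in tail 31289 (9 of 3442), 0.0536 % in tail 31544 (1 of 1867), 0.118 % in tail 32181 (2 of 1694), 0.0300 % in tail 32178 (1 of 3333) and 0.384 % in tail 32803 (51 of 13283). It was 0.129 % in e9.5 head (9 of 6961), 0.103 % in e9.5 spine (8 of 7783) and 0.183 % in e9.5 visceral organs (13 of 7106). All 51 nearly full reads of the maternal tail 32803, with 24 patterns, had a pattern that the paternal tail 32802 also held, against 84.3 % for the next tail and a median of 73.5 % over the paternal tails. Tails 32803 and 32802 were both in sequencing run 1. Full sharing also occurred in maternal libraries with fewer reads. Tail 31289 (9 reads) reached 100 % with tails 30999 and 31078, and e9.5 head (9) with tail 31819. E9.5 visceral organs (13) reached it with tails 31150 and 31508. Their medians over the paternal tails were 100, 88.9 and 88.5 %. Whether tails 32803 and 32802 share molecules was not tested.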

How the results depend on the processing

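Of 320 values recomputed for comparisons under other settings, 277 kept their direction and side of the threshold, 22 reversed, 15 counts moved by more than 1.5 times, 3 gained and 3 lost a call. Of 32 further values for CpG 12 in sperm against tails, 27 kept and 5 lost the call. The cause was not tested. The count of CpGs that differed between sperm and tails was 0 with 1-skip reads alone, with medians and with either lineage of tails alone, 0 and 3 with tail 32415 left out of the paternal and put in the alternating lineage, 2 within run 2, 4 with 6 sperm libraries and 5 as percent of reads. Percent of reads is a scale that also carries the number of skips per read, which the rule used. Leaving out libraries, the count for sperm and tails ranged from 1 to 3, with 3 without tail 30999 and 2 without tail 32802 or sperm 35670. At CpG 12 the adjusted exact permutation p was 0.143 with 1-skip reads, 0.0659 with medians, 0.190 with the paternal (0.119 without tail 32415) and 0.0635 with the alternating lineage. Fewer tails in a lineage raise the smallest p that can be reached. The count for e9.5 tissues against tails was 2 with 1-skip reads, 1 with distinct patterns, and 0 to 2 leaving out libraries, with 2 without tail 32802.

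At CpGs 12 to 20, sperm minus tails was 13.3 as percent of reads with at least 1 such skip (exact permutation test, p = 0.00385, a call gained). That scale also carries the number of skips per read, which the rule used, so the gain is no result about positions alone. The e9.5 tissues minus tails was -1.72 with every CpH converted, -2.84 with 1-skip reads, -3.72 as percent of reads, -0.941 against the alternating lineage (-0.559 with tail 32415), and -7.91 to 14.5 leaving out libraries, lowest without visceral organs. The e9.5 tissues minus sperm was 8.30 with 2 or 3 skips, 2.35 with distinct patterns (1.19 with head and spine alone), and -12.05 to 10.3 leaving out libraries, highest without extraembryonic tissue. Supernatant minus pellet was -1.62 with 1-skip reads. Without the pairing by animal (no replicate block) it kept its value of 1.23 percentage points (exact permutation test, p = 0.667).

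The neighbour excess of tails was 3.54 in the alternating lineage, 3.24 with tail 32415 added to it and 8.85 in the paternal lineage without that tail, each past no threshold. That of the e9.5 tissues was -3.00 with every CpH converted, -0.369 without CpGs 1 and 20, -0.535 without head and both tails that share its patterns, and -8.23 to 14.7 leaving out tissues. Minus tails it was 2.21 with medians, 1.71 with head and spine alone, and -13.8 to 9.09 leaving out libraries. That of sperm was -0.470 to 4.88 leaving out animals, lowest without 35669. The difference in unconverted CpHs of tails was -0.0256 to -0.0162 leaving out tails, with an exact sign-flip permutation p of 0.0303 without tail 31153 and 0.0244 without 32529. In sperm, mismatches in place of CpHs gave 0.0813. Distinct patterns, head and spine alone, the omission of head with its 2 tails, and the other lineage of tail 32415 were chosen after seeing the data. Neighbours were not recomputed over distinct patterns. The supernatant comparison has 2 animals and no value without one of them that can be tested.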
